A study of Mus musculus with 8 samples.

Results

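The core of the TGF-beta pathway was described in injured mouse left ventricle through 10 genes taken by name from the 38293 gene identifiers counted: the ligands Tgfb1, Tgfb2 and Tgfb3, the receptors Tgfbr1 and Tgfbr2, and the signal transducers Smad2, Smad3, Smad4, Smad6 and Smad7. All 10 had a single identifier and all 10 were among the 13972 genes with enough counts to be tested. Left ventricles of C57BL/6J mice supplied the poly-A RNA. The hearts had undergone ischemia-reperfusion, a temporary closure of a coronary artery. In the antimiR-195 group (4 libraries) the myocardium was injected 2 times with 10 µl of a UPy-PEG hydrogel that carried antimiR-195, an antisense oligonucleotide that blocks miR-195. In the hydrogel group (4 libraries) the injections held the same gel without drug. Both groups therefore shared the strain, the injury, the open-chest operation and the gel, and both were taken 3 days after injury; the age of the mice is not given in the labels. The comparison asked whether transcripts of the pathway differed when the gel carried the inhibitor. Since no label says that each library is a separate animal, p-values here reflect only the variation from library to library, which may be partly technical.

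TGF-beta ligands are secreted in a latent form and, once released, bind the type II receptor Tgfbr2, which recruits and phosphorylates the type I receptor Tgfbr1. Tgfbr1 then phosphorylates Smad2 and Smad3, which join the common partner Smad4 and enter the nucleus to regulate transcription, while Smad6 and Smad7 hold the pathway back. In the injured heart the pathway is known for switching fibroblasts to matrix-producing myofibroblasts and for dampening inflammation. The miR-15 family, to which miR-195 belongs, has been reported to repress several of its transcripts in heart muscle, among them Tgfbr1, Smad3 and Smad7.

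The sequences that link the drug to these genes are the mature microRNA and the matching sites in the transcripts. Members of the family share the seed, bases 2 to 8 of the microRNA, which pairs with target transcripts and is printed in capitals. The sequences are RefSeq entries on GRCm38.p6, read 5′ to 3′. 10 mature mouse microRNAs in that table carried the same seed, and 5 of the family are shown because they share it and differ mainly after it.
mmu-miR-195a-5p: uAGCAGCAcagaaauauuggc
mmu-miR-497a-5p: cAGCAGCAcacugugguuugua
mmu-miR-15a-5p: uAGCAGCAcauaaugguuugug
mmu-miR-15b-5p: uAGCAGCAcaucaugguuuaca
mmu-miR-16-5p: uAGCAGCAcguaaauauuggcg
Mature miR-195a-5p lies at chr11:70235062-70235082 on the plus strand, and miR-497a-5p lies close by at chr11:70234730-70234751 on the same strand. The microRNAs themselves were not measured in these poly-A libraries.

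The annotated 3′ UTRs (GENCODE M21, GRCm38) were searched on the transcript strand for TGCTGCT, the complement of the seed, and for GCTGCTA, with TGCTGCTA counted once as the longest match. Of the 10 genes, 7 held at least 1 match: Tgfb3, Tgfbr1, Tgfbr2, Smad2, Smad3, Smad4 and Smad7. The UTRs of Tgfb1, Tgfb2 and Smad6 held none. Over all 20107 UTRs searched, 4831 or 24.0% held a match, a share that grows with UTR length. Among UTRs between 0.5 and 2 times as long as its own, 49.8% held a match for Tgfbr1 (UTR of 4154 bases), 45.6% for Smad3 (3495 bases), 58.6% for Tgfbr2 (6085 bases) and 21.6% for Tgfb3 (1035 bases). The same share was 29.2% for Smad7, 24.9% for Smad4 and 59.3% for Smad2, which also held a match, and 3.42% for Tgfb1, 40.1% for Tgfb2 and 11.3% for Smad6, which held none. A match is a description of sequence and shows no binding.

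The sites of the genes with receptor or ligand roles and of Smad3 are shown with their flanks, with the bases that match the seed in capitals, since these are the bases the seed can pair with.
Tgfbr1, chr4:47412233-47412261, plus strand: gttgggtcttctcacTGCTGCTggagtta
Tgfbr2, chr9:116089369-116089397, minus strand: taatttttgtcgctcTGCTGCTgggtctt
Tgfbr2, chr9:116086240-116086268, minus strand: tggctggtagtaagtTGCTGCTttgcata
Tgfb3, chr12:86057725-86057753, minus strand: actgccaccacagacTGCTGCTccttgga
Smad3, chr9:63649077-63649105, minus strand: tactcgcttcttggcTGCTGCTtctgttg
Smad3, chr9:63648762-63648790, minus strand: agatggtctgtggacTGCTGCTtcagaca
Smad3, chr9:63647000-63647028, minus strand: tatcccagaagccttTGCTGCTgccaggg
With 3 matches, Smad3 held the most of the 10 genes, and Tgfbr2 held 2.

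Total gene counts lay between 16872968 in antimiR-195 replicate 3 and 22751753 in hydrogel replicate 3, and a single member had 176 to 1609 counts in a library. Levels below are CPM (library-scaled counts), with TMM factors, and differences are log2 fold changes of antimiR-195 over hydrogel ± SE from edgeR's quasi-likelihood test. AntimiR-195 replicate 2 stood apart: its correlation with the other libraries over genes was 0.944 to 0.970, against 0.978 to 0.991 between all other pairs. Fold changes that its removal moved by over 1.5 times, or turned in sign, are therefore also given without it. AntimiR-195 replicate 2 also had the highest share of alignments that were not unique, 47.8%, against 42.1% to 44.5% in the other libraries. Its share of ambiguous reads was the highest, 1.05% against 0.772% to 0.897%. Its share of reads outside genes was the lowest, 6.38% against 6.72% to 7.55%. The part of these read shares in its gene levels was not tested. Heart muscle was marked by cardiomyocyte genes, with 7 of 7 counted in every library and a summed level of 56211 to 65019 CPM with antimiR-195 and 54549 to 62126 CPM with hydrogel; these genes do not tell the left ventricle from other chambers.

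None of the 10 genes passed an adjusted p of 0.05, and none of them had groups that did not overlap. Over all tested genes 0% passed the same threshold, 1.27% had an unadjusted p below 0.05 and 1.07% had groups that did not overlap. Each of the 10 genes had an adjusted p of 0.9999 in this edgeR test. Their log2 fold changes split evenly, 5 above 0 and 5 below, beside 52.4% above 0 among all tested genes. The median was -0.01 for the 10 genes and 0.01 for all tested genes. The largest difference was that of Tgfb2, at 0.28 ± 0.14, and the other 9 lay between -0.08 and 0.08.

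**Figure D1:**
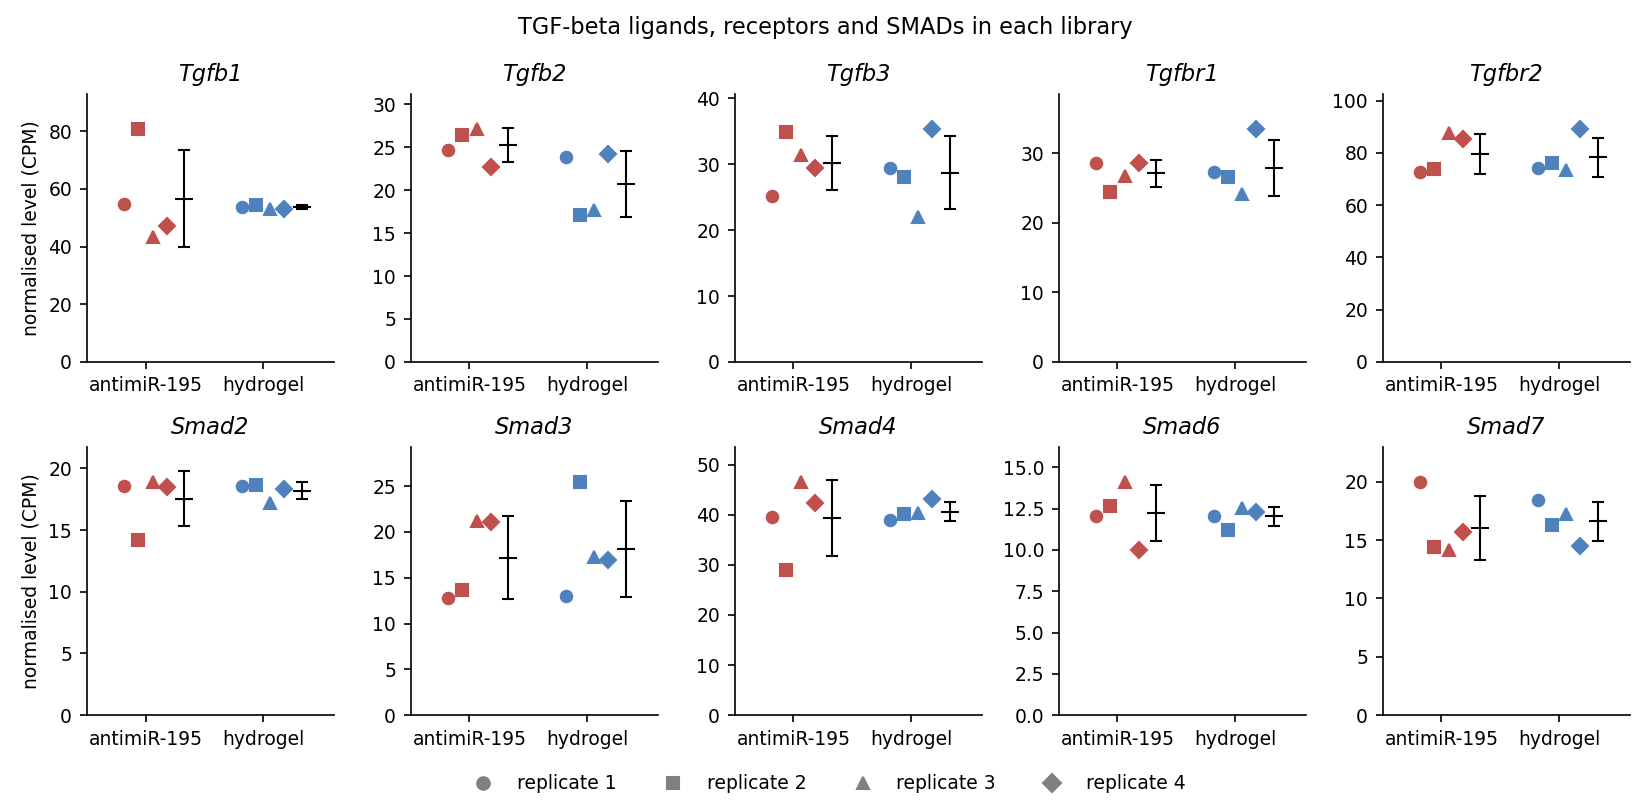
Normalised level of each gene in each library, in CPM on a linear axis from 0, with antimiR-195 left of hydrogel; marker shapes are replicates and the bars beside them are the mean ± SD of 4 libraries. All 10 pairs of groups overlap, and antimiR-195 replicate 2 is highest for Tgfb1 (80.9 CPM) and lowest for Smad2 (14.2 CPM) and Smad4 (28.9 CPM).

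Of the ligands, Tgfb1 encodes the isoform made by many cells of the injured heart, among them macrophages, platelets and fibroblasts. It lies at chr7:25687002-25705077 on the plus strand of GRCm38. Tgfb1 had 54.8, 80.9, 43.5 and 47.3 CPM in the antimiR-195 libraries, against 53.7, 54.4, 53.0 and 53.1 CPM in the hydrogel libraries. The hydrogel libraries were nearly equal, while 2 antimiR-195 libraries lay above all of them and 2 below. The means were 56.6 ± 16.9 CPM with antimiR-195 and 53.6 ± 0.657 CPM with hydrogel (SD, n = 4 each), a log2 fold change of 0.08 ± 0.18 (unadjusted p 0.660, edgeR's quasi-likelihood test). Without antimiR-195 replicate 2 the sign turned, to -0.15, with the other 3 libraries at 48.5 ± 5.77 CPM. The coefficient of variation was 29.8% with antimiR-195 and 1.23% with hydrogel, where counting error alone at its mean count is about 3.12%. The hydrogel spread of Tgfb1 was therefore smaller than counting error on its own would give on average.

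Like Tgfb1, platelet and macrophage markers were highest in antimiR-195 replicate 2 and lowest in antimiR-195 replicate 3. The pattern was not particular to them. Neutrophil markers (69.1 and 23.3 CPM in these libraries) and B cell markers (4.32 and 1.62 CPM) had the same highest and lowest libraries. Cardiomyocyte, fibroblast and erythroid markers were also highest in antimiR-195 replicate 2. Platelet and megakaryocyte markers, led by Pf4, summed to 107, 185, 62.6 and 77.8 CPM in the antimiR-195 libraries and to between 85.5 and 105 CPM in the hydrogel libraries. Macrophage and monocyte markers, led by Lyz2, summed to 1342, 2115, 1221 and 1483 CPM in the antimiR-195 libraries, against 1461 to 1984 CPM in the hydrogel libraries. All 4 platelet markers and all 8 macrophage markers had counts in every library. In bulk tissue, fewer cells of a type and less RNA per cell cannot be told apart, and the part of these cells in the spread of Tgfb1 was not tested.

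Tgfb2, an isoform required in mice for normal heart development, lies at chr1:186622792-186705989 on the minus strand. It had 24.7, 26.4, 27.2 and 22.7 CPM in the antimiR-195 libraries, against 23.9, 17.1, 17.6 and 24.2 CPM in the hydrogel libraries. In the antimiR-195 group 3 libraries exceeded every hydrogel library, and the hydrogel libraries formed a low pair and a high pair. The means were 25.2 ± 2.00 CPM with antimiR-195 and 20.7 ± 3.86 CPM with hydrogel (SD, n = 4 each), a ratio of 1.22 with a 95% interval of 0.976 to 1.52. In edgeR's quasi-likelihood test the unadjusted p was 0.0754, and the difference did not pass after adjustment. The size of its log2 fold change exceeded that of 87.5% of tested genes. Leaving out single libraries moved it between 0.20 and 0.36, always above 0. Each such fit kept hydrogel replicate 2, hydrogel replicate 3 or both, so it cannot show whether the difference rests on this low pair. An annotated antisense gene, Gm29491, overlaps 124 bases of Tgfb2, and the strand setting of the counting is not given. Hydrogel replicates 2 and 3, the low pair, had the lowest myofibroblast marker sums of that group, 1025 and 711 CPM against 1152 and 1485 CPM. Their erythroid sums were the highest, 1534 and 1397 CPM against 404 and 415 CPM. In the antimiR-195 libraries erythroid markers summed to 1053, 1924, 510 and 558 CPM. Endothelial, macrophage, neutrophil and platelet sums also split this way, and the other lists did not. The part of tissue make-up in the Tgfb2 values was not tested.

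Tgfb3, the third isoform, lies at chr12:86056745-86079041 on the minus strand and holds 1 of the seed matches shown. It had 25.1, 35.0, 31.4 and 29.4 CPM in the antimiR-195 libraries, against 29.4, 28.0, 21.97 and 35.4 CPM in the hydrogel libraries. Hydrogel replicate 4 was the highest of all 8 and hydrogel replicate 3 the lowest. The means were 30.2 ± 4.11 CPM with antimiR-195 and 28.7 ± 5.51 CPM with hydrogel (SD, n = 4 each), a log2 fold change of 0.08 ± 0.16, which turned to -0.01 without antimiR-195 replicate 2. Opposite-strand annotations also overlap Tgfb3, over 420 bases.

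Of the receptors, Tgfbr1 (chr4:47353222-47414931, plus strand) encodes the type I receptor kinase and is a reported miR-15 family target. It had 28.6, 24.5, 26.8 and 28.6 CPM in the antimiR-195 libraries, against 27.3, 26.6, 24.2 and 33.6 CPM in the hydrogel libraries. The antimiR-195 libraries all lay within the range of the hydrogel libraries. The means were 27.1 ± 1.93 CPM with antimiR-195 and 27.9 ± 3.99 CPM with hydrogel (SD, n = 4 each), a log2 fold change of -0.04 ± 0.12 with a 95% interval of -0.32 to 0.23. It was -0.005 without antimiR-195 replicate 2.

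Tgfbr2 (chr9:116084293-116175360, minus strand), the ligand-binding type II receptor, was the best measured member at 1294 to 1609 counts per library. It had 72.5, 73.7, 87.4 and 85.1 CPM in the antimiR-195 libraries, against 74.3, 76.1, 73.5 and 89.3 CPM in the hydrogel libraries. Both groups had low and high libraries, and hydrogel replicate 4 was the highest. The means were 79.7 ± 7.69 CPM with antimiR-195 and 78.3 ± 7.42 CPM with hydrogel (SD, n = 4 each), a log2 fold change of 0.03 ± 0.12 with a 95% interval of -0.23 to 0.28, and of 0.05 without antimiR-195 replicate 2. Its UTR holds 2 of the seed matches shown.

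Of the receptor-activated Smads, Smad2 is the transducer that does not bind DNA directly in its main form. It lies at chr18:76241580-76310963 on the plus strand. Smad2 had 18.6, 14.2, 18.9 and 18.5 CPM in the antimiR-195 libraries, against 18.6, 18.7, 17.2 and 18.3 CPM in the hydrogel libraries. Apart from antimiR-195 replicate 2, all libraries lay within a narrow band. The log2 fold change was -0.05 ± 0.12 with all libraries and 0.03 without that library, whose removal left the antimiR-195 group at 18.7 ± 0.211 CPM (SD, n = 3), against 18.2 ± 0.690 CPM with hydrogel (SD, n = 4).

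Smad3 (chr9:63646767-63757994, minus strand), the DNA-binding transducer needed for much of the fibrotic response in mice, varied most among the Smads. It had 12.8, 13.7, 21.2 and 21.1 CPM in the antimiR-195 libraries, against 12.96, 25.5, 17.2 and 17.0 CPM in the hydrogel libraries. Low and high libraries occurred in both groups. The coefficient of variation was 26.6% with antimiR-195 and 28.9% with hydrogel, where counting error alone is about 5.5%. The means were 17.2 ± 4.58 CPM with antimiR-195 and 18.2 ± 5.26 CPM with hydrogel (SD, n = 4 each), a log2 fold change of -0.08 ± 0.23 with the widest 95% interval of the 10 genes, -0.59 to 0.43. It was 0.007 without antimiR-195 replicate 2. For this gene, which carries 3 seed matches, changes within the bounds of that interval were not excluded.

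Smad4 (chr18:73639009-73703780, minus strand), the partner that both the TGF-beta and the BMP branch need, had 39.6, 28.9, 46.6 and 42.4 CPM in the antimiR-195 libraries, against 38.9, 40.2, 40.3 and 43.2 CPM in the hydrogel libraries. The antimiR-195 libraries spread on both sides of the hydrogel libraries. The means were 39.3 ± 7.55 CPM with antimiR-195 and 40.6 ± 1.82 CPM with hydrogel (SD, n = 4 each), a log2 fold change of -0.05 ± 0.14 that became 0.07 without antimiR-195 replicate 2.

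Of the inhibitory Smads, Smad6 (chr9:63953076-64022059, minus strand), which acts mainly on the BMP branch, was the least counted, at 176 to 272 counts per library. It had 12.0, 12.6, 14.1 and 10.02 CPM in the antimiR-195 libraries, against 12.1, 11.2, 12.6 and 12.3 CPM in the hydrogel libraries. The antimiR-195 libraries spread on both sides of a narrow hydrogel group. The means were 12.2 ± 1.70 CPM with antimiR-195 and 12.0 ± 0.585 CPM with hydrogel (SD, n = 4 each), a log2 fold change of 0.02 ± 0.13 that became -0.005 without antimiR-195 replicate 2.

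Smad7 (chr18:75367529-75395935, plus strand) is itself induced by TGF-beta and blocks Tgfbr1, and it is a target reported for this microRNA. Its UTR of 1570 bases held 1 seed match, the longest class found among the 10 genes, 69 to 76 bases into the UTR. Smad7 had 20, 14.4, 14.1 and 15.7 CPM in the antimiR-195 libraries, against 18.4, 16.3, 17.2 and 14.5 CPM in the hydrogel libraries. AntimiR-195 replicate 1 was the highest of all 8, and 2 antimiR-195 libraries were the lowest. The means were 16.1 ± 2.72 CPM with antimiR-195 and 16.6 ± 1.65 CPM with hydrogel (SD, n = 4 each). The log2 fold change was -0.05 ± 0.14 with a 95% interval of -0.36 to 0.27 (edgeR's quasi-likelihood test, unadjusted p 0.745), and -0.008 without antimiR-195 replicate 2. On the linear scale the ratio was 0.967, with an interval of 0.777 to 1.2, so neither changes within those bounds nor no change were excluded.

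**Figure D2:**
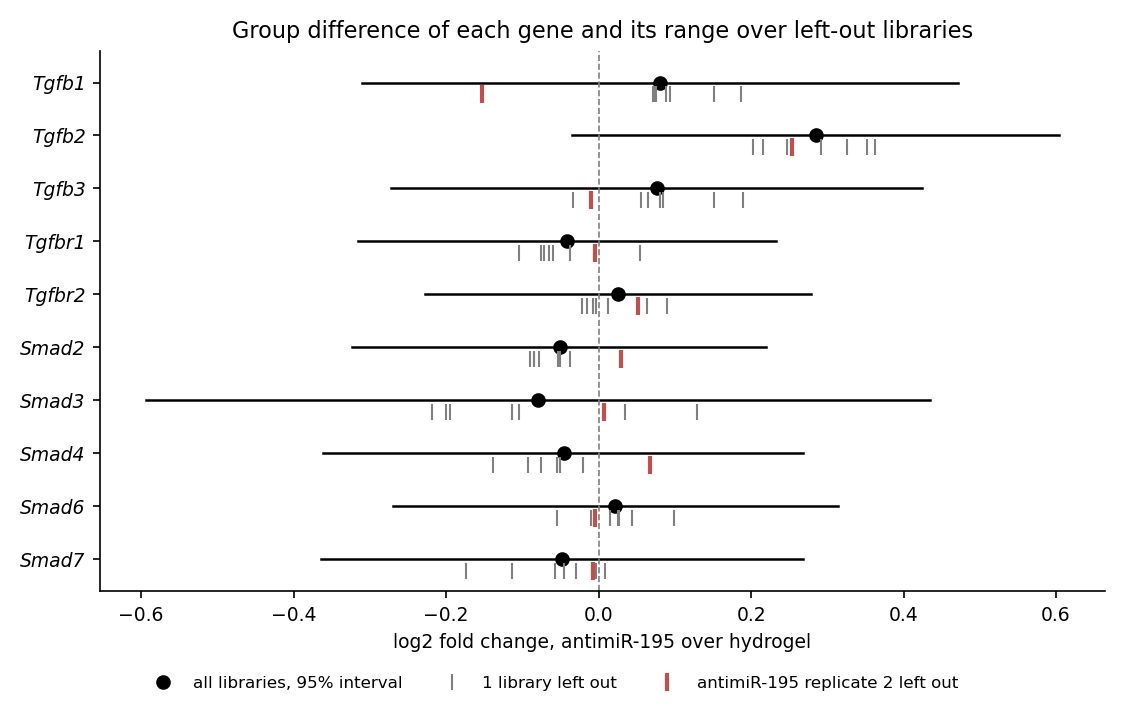
Log2 fold change of antimiR-195 over hydrogel for each gene (point) with its 95% interval (line); short ticks are the values with 1 library left out, and the heavier tick is the value without antimiR-195 replicate 2. All 10 intervals include 0, and Tgfb2 is the only gene whose ticks all lie on one side of 0. Each of those Tgfb2 ticks keeps hydrogel replicate 2, hydrogel replicate 3 or both, its low libraries.

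Levels of different genes can be set against each other only per length, for which the deposited RPKM values were used. Over all 8 libraries Tgfb1 had the highest level, 21.6 ± 4.82 RPKM, ahead of Tgfbr2 at 16.5 ± 1.58, Smad4 at 10.8 ± 1.32 and Tgfb3 at 8.72 ± 1.53 RPKM (SD, n = 8). The remaining 6 genes lay close together, from Smad2 at 5.03 ± 0.432 RPKM through Tgfb2, Tgfbr1, Smad6 and Smad7 to Smad3 at 3.18 ± 0.778 RPKM. In that order the ranges of Tgfbr2 and Smad4, and of Tgfb3 and Smad2, did not overlap, and those of every other pair of neighbours did. Tgfb1 exceeded Tgfbr2 in 7 of 8 libraries, and Smad6 exceeded Smad7 in 4 of 8.

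The order depends on the gene length. The length behind the deposited RPKM was 2558 bases for Tgfb1, where GENCODE M21 annotates 5042 exon bases. It was 4725 bases for Tgfb2 (5791 annotated), 4785 for Tgfbr2 (8187 annotated) and 3549 for Smad2 (8781 annotated). For Tgfbr1, Smad3, Smad4, Smad6 and Smad7 both lengths were the same, and for Tgfb3 they differed by 1 base. Per kilobase of annotated exon, an alternative chosen after the data were seen, Tgfb1 at 10.9 ± 2.22, Smad4 at 10.8 ± 1.38 and Tgfbr2 at 9.65 ± 0.859 CPM per kilobase (SD, n = 8) came close together. On that scale Smad2 became the lowest of the 10, at 2.04 ± 0.180 CPM per kilobase. Tgfb3 had rank 4 on both scales and lay above the next gene in 8 of 8 libraries.

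The make-up of each set overlapped between the groups. Tgfb1 made up 60.1 ± 5.89% of summed ligand RPKM with antimiR-195 and 62.2 ± 4.30% with hydrogel, while Tgfb2 made up 15.01 ± 2.55% with antimiR-195 and 12.9 ± 1.72% with hydrogel (SD, n = 4 each). With annotated exon lengths the Tgfb1 share was 45.2 ± 6.05% with antimiR-195 and 47.2 ± 4.58% with hydrogel. The ratio of Tgfbr2 to Tgfbr1 RPKM was 4.02 ± 0.411 with antimiR-195 and 3.85 ± 0.230 with hydrogel, or 2.35 ± 0.240 with antimiR-195 and 2.25 ± 0.134 with hydrogel by annotated exon lengths. Smad6 and Smad7 together held 28.6 ± 4.24% of Smad RPKM with antimiR-195 and 27.8 ± 2.29% with hydrogel. The ratio of the inhibitor Smad7 to the transducer Smad3 ranged from 0.817 to 1.91 across antimiR-195 libraries and from 0.784 to 1.74 across hydrogel libraries. With all libraries the groups overlapped for each of these shares and ratios. Without antimiR-195 replicate 2 the difference in the Tgfb2 share, antimiR-195 minus hydrogel, was 3.19 percentage points in place of 2.10. The remaining antimiR-195 libraries, at 15.3%, 17.96% and 15.01%, then lay above the hydrogel libraries, at 10.9% to 14.6%. The library left out, at 11.7%, was the only antimiR-195 library within the hydrogel range, so this separation follows from leaving it out. It is no support for a group difference. The difference in the Tgfb1 share was -4.25 percentage points without that library in place of -2.09, and 0.25 without antimiR-195 replicate 3.

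**Figure D3:**
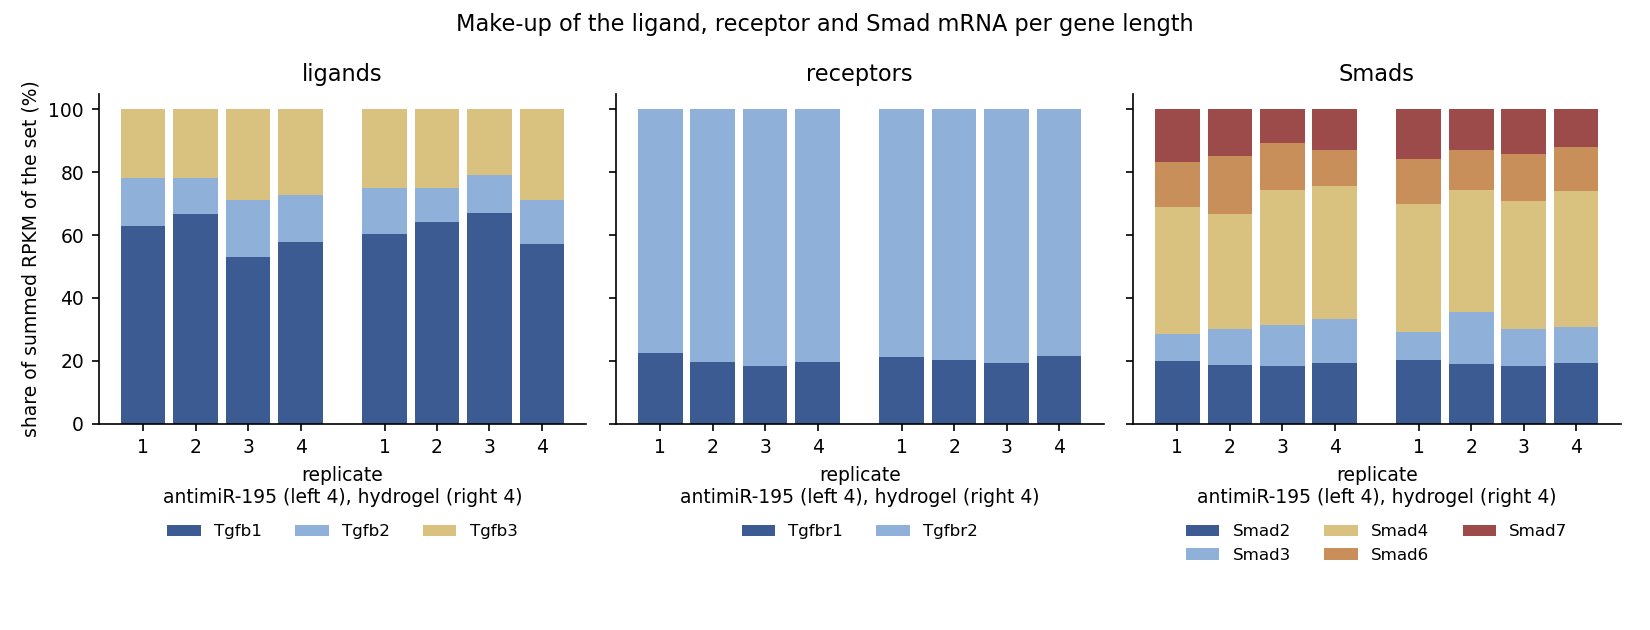
Share of summed RPKM (%) that each gene took of its set, ligands, receptors or Smads, in each library, with the 4 antimiR-195 libraries left of the 4 hydrogel libraries. Tgfb1 takes 53.1% to 66.5% of the ligands with antimiR-195 and 57.1% to 67.0% with hydrogel.

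Across the 8 libraries the genes did not move as 1 block. Pearson's r of log2 CPM is given as a description over 8 libraries that share their preparation, tissue make-up and scaling. Tgfb1 ran against Smad4, with r of -0.97, or -0.86 without antimiR-195 replicate 2. The r of Tgfb1 with Smad2 was -0.90 and that of Smad2 with Smad4 was 0.91, but these were -0.33 and 0.30 without that library. Tgfbr2 ran against Smad7, at -0.68 with all libraries and -0.90 without antimiR-195 replicate 2. Tgfb3 ran against Smad7 at -0.72 (-0.66 without that library). Receptors ran together at 0.64 (0.59 without antimiR-195 replicate 2), and Tgfb2 with Tgfb3 at 0.63 (0.57). Hydrogel replicate 4 was the highest library for both receptors, at 33.6 CPM for Tgfbr1 and 89.3 CPM for Tgfbr2. The r of the receptors without hydrogel replicate 4 was not computed. Pericyte and smooth muscle markers, led by Rgs5, summed to 498, 368, 690 and 611 CPM in the antimiR-195 libraries, against 471 to 607 CPM in the hydrogel libraries. Like Smad2 and Smad4 they were lowest in antimiR-195 replicate 2, and their part in these values was not tested. That library was also the lowest for 11 of 17 Smad cofactors and feedback regulators and 9 of 12 non-SMAD branch genes. It was the lowest for 1 of 25 TGF-beta response genes.

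**Figure D4:**
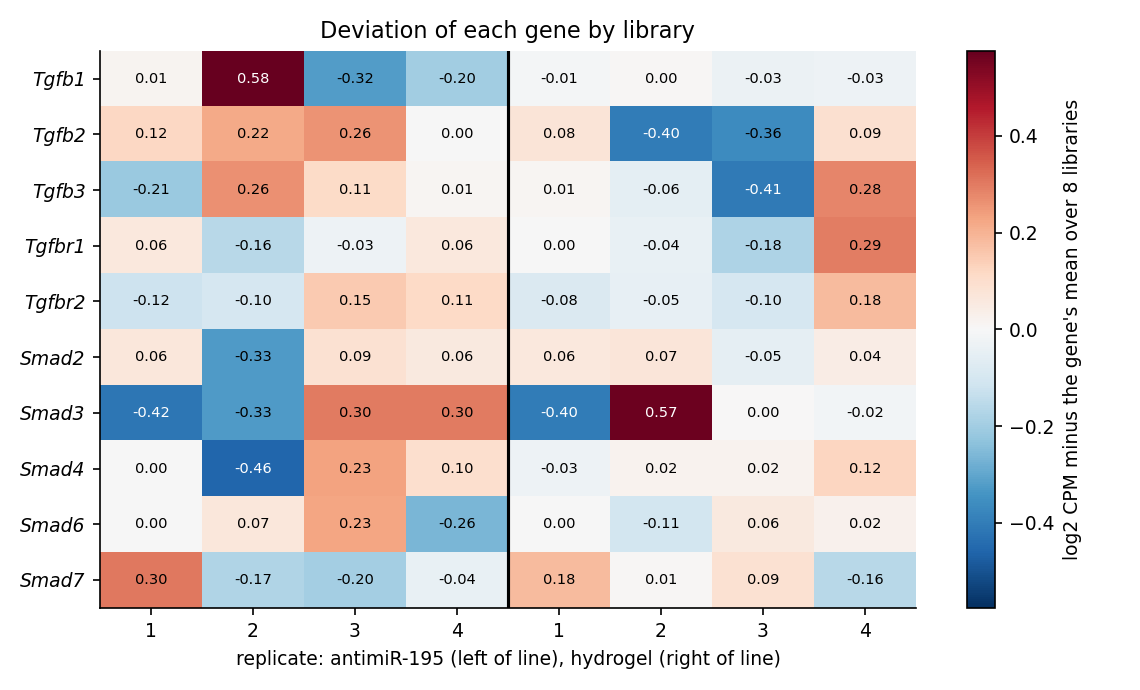
Log2 CPM of each gene in each library minus the gene's mean over all 8 libraries, with antimiR-195 libraries left of the line and hydrogel libraries right of it. AntimiR-195 replicate 2 is far above the mean for Tgfb1 and below it for Smad2, Smad3 and Smad4, and Smad3 deviates in both groups.

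Among 13164 genes whose log2 CPM averaged 0 or more, the closest in pattern to each member were listed by Pearson's r over the 8 libraries. Tgfb1 was closest to 2310058D17Rik (0.98, or 0.94 without antimiR-195 replicate 2) and to Cd52 (0.98, or 0.93), a surface glycoprotein gene of lymphocytes and macrophages. Tgfb2 was closest to Slc41a2 (0.97) and Adcy4 (0.96), and Tgfb3 to Nemp2 (0.97) and Samhd1 (0.97). Tgfbr1 was closest to Inpp5d (0.99), which encodes the blood cell phosphatase SHIP1, and to Rasa3 (0.98), and Tgfbr2 to Rgp1 (0.98) and Plxnc1 (0.97). Smad2 was closest to Cyb561a3 (0.996, or 0.96 without antimiR-195 replicate 2) and Zfp146 (0.99, or 0.94). Smad4 was closest to Sptbn1 (0.992, or 0.985 without that library) and Ncoa2 (0.99, or 0.94). Smad3 was closest to Gm21092 (0.96) and Scube2 (0.96), Smad6 to St7 (0.96) and 2810403D21Rik (0.89), and Smad7 to Rn7sk (0.97) and Tra2a (0.97). These r are the highest of many, carry no test and do not show which cells held the transcripts.

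The miR-15 family targets reported for the pathway are Tgfbr1, Smad3, Smad7, the co-receptor endoglin (Eng) and the p38 kinase Mapk14. None of the 5 passed the test, 2 of 5 log2 fold changes were above 0, and their median was -0.04, or 0.01 without antimiR-195 replicate 2. Eng, with 2 seed matches in its UTR, had 173 ± 8.74 CPM with antimiR-195 and 165 ± 9.83 CPM with hydrogel (SD, n = 4 each), a log2 fold change of 0.07 ± 0.10 that became 0.03 without antimiR-195 replicate 2. Among UTRs of like length, 22.7% held a match. Mapk14, whose UTR of 2068 bases held no match, had 72.4 ± 3.18 CPM with antimiR-195 and 70.9 ± 7.43 CPM with hydrogel, a log2 fold change of 0.03 ± 0.11; 35.0% of UTRs of like length held one.

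The rest of the pathway was read from lists by role, and by edgeR's quasi-likelihood test no member of any list was called at an adjusted p of 0.05. Of 20 genes listed for the storage, processing and release of latent ligand, 14 had log2 fold changes above 0. Their median was 0.07, which was 0.04 without antimiR-195 replicate 2 and 0.02 without hydrogel replicate 3. Since not all of these genes act on the ligand in the same direction, the count gives no direction of activation. Itgav, the integrin alpha V subunit of receptors that activate latent TGF-beta, had 44.9, 44.5, 48.4 and 37.7 CPM in the antimiR-195 libraries, against 36.5, 35.9, 31.6 and 41.0 CPM in the hydrogel libraries. In 3 antimiR-195 libraries it exceeded every hydrogel library, and its log2 fold change was 0.28 ± 0.12 (unadjusted p 0.0417, edgeR's quasi-likelihood test, not called after adjustment). Ltbp2, which encodes a protein of elastic fibres, was at 0.48 ± 0.28 and Emilin1, which restrains ligand processing, at 0.25 ± 0.18. Without antimiR-195 replicate 2 these were 0.30 for Ltbp2 and 0.05 for Emilin1.

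Of 9 tested co-receptors and other type I receptors, 7 lay above 0 with a median of 0.09, or 0.03 without antimiR-195 replicate 2. The neuropilin genes Nrp1 and Nrp2 were at 0.22 ± 0.17 and 0.16 ± 0.14. Nrp1 had 339 CPM in antimiR-195 replicate 2 and was at 0.06 without it, where Nrp2 was at 0.15. Tgfbr3, the gene of the co-receptor betaglycan, was at -0.22 ± 0.24 and at 0.00 without that library. Of 17 Smad cofactors and feedback regulators, 10 lay above 0 with a median of 0.02. The co-repressor Tgif1 was at 0.41 ± 0.25 and the feedback inhibitor Pmepa1 at 0.25 ± 0.17, and these became 0.17 and 0.02 without antimiR-195 replicate 2. Zfyve9, which encodes the Smad anchor SARA, was at -0.15 ± 0.16, or -0.03 without it.

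In the BMP and activin branch, 14 of 22 tested genes lay above 0, with a median of 0.06. Inhbb, an activin subunit gene, was at 0.35 ± 0.19, and Fstl1, a follistatin-like secreted protein gene, at 0.34 ± 0.22, or 0.09 without antimiR-195 replicate 2. Chrd, the gene of the BMP antagonist chordin, had 3.53, 3.34, 2.81 and 3.65 CPM in the antimiR-195 libraries, against 4.07, 4.01, 4.48 and 3.66 CPM in the hydrogel libraries. Its groups did not overlap, with a highest antimiR-195 value of 3.65 CPM and a lowest hydrogel value of 3.66 CPM, and its log2 fold change of -0.28 ± 0.16 did not pass (unadjusted p 0.111, edgeR's quasi-likelihood test). In the non-SMAD branch, 4 of 12 genes lay above 0 with a median of -0.03, and 9 of 12 with a median of 0.01 without antimiR-195 replicate 2. Tab1, an activator of the TGF-beta activated kinase, was at 0.14 ± 0.11, Traf6, its upstream ubiquitin ligase, at -0.12 ± 0.14 and Tab2, an adaptor, at -0.11 ± 0.14. Without antimiR-195 replicate 2 these were 0.07 for Tab1, -0.04 for Traf6 and 0.01 for Tab2.

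Of a list of genes known to respond to TGF-beta, all 25 tested had log2 fold changes above 0, beside 52.4% of all tested genes. Their median was 0.30, and none passed the test. Without antimiR-195 replicate 2 the count was 24 of 25 and the median 0.14, and without hydrogel replicate 3 the median was also 0.14. Without hydrogel replicate 4 it was 0.46, the highest with 1 library left out. AntimiR-195 replicate 2 held the highest value for 18 of the 25 and hydrogel replicate 3 the lowest for 17 of the 25. The myofibroblast markers, which share Postn, Cthrc1, Acta2 and Fn1 with this list, had their highest and lowest sums in the same libraries. They summed to 1186 to 1938 CPM with antimiR-195 and 711 to 1485 CPM with hydrogel. Fibroblast markers summed to 3540 to 4424 CPM with antimiR-195 and 3316 to 4307 CPM with hydrogel. Their leading gene Col1a1, with a mean of 1740 CPM, is also on the response list, so neither sum is independent of it. All 5 myofibroblast and all 7 fibroblast markers had counts in every library, and their part in the direction of the list was not tested. The list was chosen with earlier results of these data known and is no independent support for a direction. It does not hold every gene that responds to TGF-beta. Smad7, also induced by TGF-beta, is not on it and was at -0.05 ± 0.14. The feedback inhibitor Pmepa1, not on it either, was at 0.25 ± 0.17, or 0.02 without antimiR-195 replicate 2.

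Snai1, which encodes a transcription factor induced by TGF-beta in mesenchymal change, had 11.7, 13.2, 8.32 and 8.54 CPM in the antimiR-195 libraries, against 7.25, 7.43, 6.56 and 7.83 CPM in the hydrogel libraries. Every antimiR-195 library exceeded every hydrogel library. The means were 10.4 ± 2.40 CPM with antimiR-195 and 7.27 ± 0.532 CPM with hydrogel (SD, n = 4 each), a log2 fold change of 0.52 ± 0.17 (unadjusted p 0.0121, edgeR's quasi-likelihood test, not called after adjustment) and of 0.38 without antimiR-195 replicate 2. Timp1, a metalloproteinase inhibitor gene, was at 0.78 ± 0.38, which became 0.21 without that library, where it had 310 CPM against 80.99 to 153 CPM in the other antimiR-195 libraries. Snai2, a relative of Snai1, was at 0.34 ± 0.18, or 0.17 without that library. Ccn2, a widely used read-out of Smad3 activity that was picked after its values were seen, was at 0.13 ± 0.19, or -0.03 without antimiR-195 replicate 2.

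**Figure D5:**
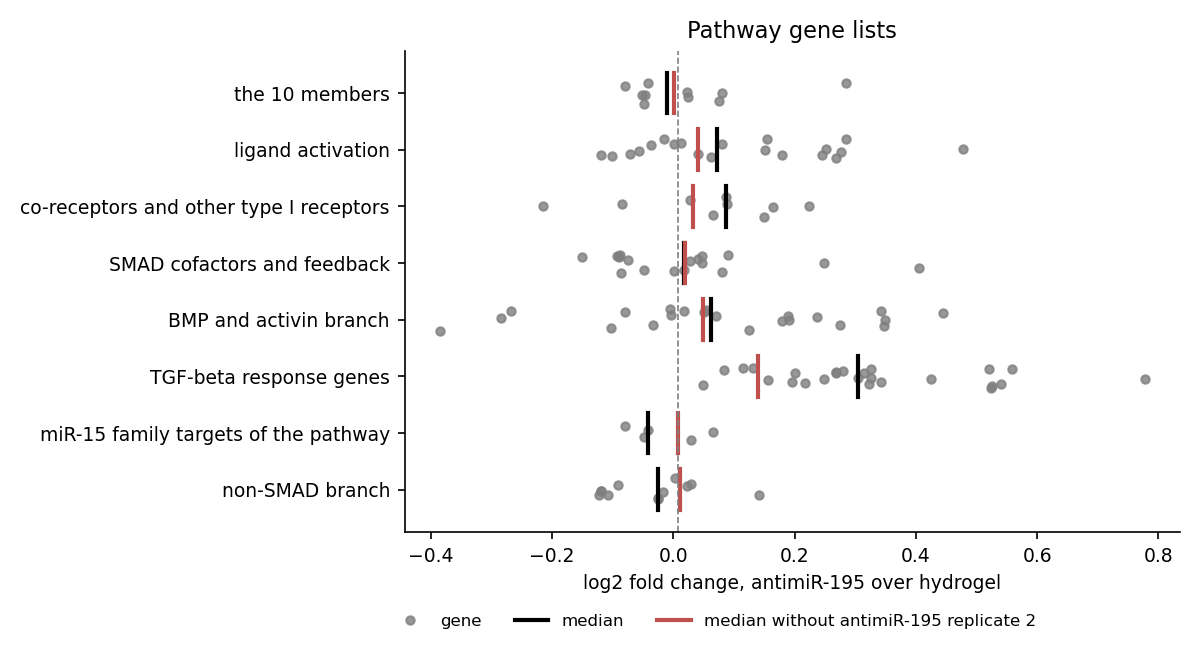
Log2 fold change of antimiR-195 over hydrogel for each tested gene (points) of the 10 members and 7 lists, with the median of each list (black bar) and the median without antimiR-195 replicate 2 (red bar); the dashed line is the median of all tested genes, 0.01. The TGF-beta response genes have a median of 0.30, and 0.14 without that library, while the medians of the other lists lie between -0.04 and 0.09.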

How the data were processed

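TRIzol extraction and a stranded TruSeq mRNA kit were used, per the labels' protocols. STAR, HTSeq, DESeq and GRCm38 appear without versions in the submitters' processing notes. The deposited counts are whole numbers per Ensembl gene; the per-library files and the series table differed in 0 cells. The authors also deposited RPKM values, which imply 1 gene length across libraries. Lines naming no gene were left out; reads outside genes made up 6.38% to 7.55% and the multimapped line 42.1% to 47.8%. Symbols came from GENCODE M21 (36429 of 38293 identifiers).

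Counts were filtered with filterByExpr, scaled with TMM (factors 0.953 to 1.04) and tested with edgeR 4.0.16 in R 4.3.3 (quasi-likelihood, no covariates, Benjamini-Hochberg over 13972 genes, threshold 0.05), after a test on simulated data. The common biological coefficient of variation was 19.1%. DESeq2 1.42.0 and limma 3.58.1 served as alternatives, limma also on log2(RPKM + 0.1). Deposited RPKM values were used for shares and order. Replicates were numbered in accession order within each group.

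The 10 genes and the lists were chosen with earlier results of these data known. Named were the 10 genes, the 3 genes of each list with the smallest p, all reported miR-15 family targets, the 2 genes closest to each member by Pearson's r, and leading markers. UTRs were those of the transcript with the longest annotated 3′ UTR of at least 50 bases. Acvr1c, Il11, Bmp10, Bmpr1b, Mstn, Nog and Grem1 were among the list genes that did not pass the filter, some list genes are not reported by name here, and Ctgf is an older symbol of Ccn2.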

Additional observations from a re-analysis of the deposited data

Results flagged for a closer look

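Of 38 groups of 4 libraries examined for a value far from the others, 2 were flagged, and chance flags about 1 group in 20. Smad2 in antimiR-195 replicate 2 had 14.2 CPM, against 18.5 to 18.9 CPM in the other antimiR-195 libraries, and its gap was 0.915 of the group's range. Pericyte and smooth muscle markers were also lowest in this library, at 368 CPM. So were 11 of 17 Smad cofactors and feedback regulators and 9 of 12 non-SMAD branch genes, against 1 of 25 TGF-beta response genes. Platelet and macrophage markers were highest in antimiR-195 replicate 2, at 185 and 2115 CPM, as were neutrophil, cardiomyocyte, fibroblast and erythroid markers. The library also had the highest share of alignments that were not unique, at 47.8%. The part of these differences in the Smad2 value was not tested. Tgfbr2 in hydrogel replicate 4 had 89.3 CPM, against 73.5 to 76.1 CPM in the other hydrogel libraries, with a gap of 0.835 of the range. Both gaps exceeded Dixon's 95% critical value for groups of this size. The same library was also the highest of all 8 for Tgfbr1 at 33.6 CPM and for Tgfb3 at 35.4 CPM.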

How the results depend on the processing

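No paired analysis was possible because the labels carry no replicate numbers. In all 14 alternatives, 0 genes and 0 of the 10 members passed an adjusted p of 0.05. At an unadjusted p below 0.05 edgeR had 178 genes, DESeq2 237, limma-voom 333 and limma on log2(RPKM + 0.1) 180. Over all alternatives that number ranged from 104 to 428 genes and from 0 to 1 members; the single member was Tgfb2, with a lowest p of 0.0388 and a highest of 0.205. Signs near 0 turned in 17 of 80 values with a library left out and in 6 of 60 with another setting, and the cause was not tested. The 6 came from limma-voom with quality weights, with log2 fold changes of -0.14 for Tgfb1, 0.015 for Tgfbr1, 0.011 for Smad2, 0.10 for Smad3, 0.059 for Smad4 and -0.074 for Smad6. With 1 library left out the range was -0.15 to 0.19 for Tgfb1, -0.033 to 0.19 for Tgfb3, -0.10 to 0.054 for Tgfbr1, -0.022 to 0.09 for Tgfbr2, -0.09 to 0.029 for Smad2, -0.22 to 0.13 for Smad3, -0.14 to 0.067 for Smad4, -0.055 to 0.10 for Smad6 and -0.17 to 0.008 for Smad7. Tgfb2 stayed above 0 in each of its 14 alternatives, all of which kept hydrogel replicate 2, hydrogel replicate 3 or both, its low libraries. The group difference in a member's share of its set shifted by less than 1 pooled SD from its main value in each of 100 alternatives. List medians shifted by more than the spread of libraries in 2 of 80: without antimiR-195 replicate 3 that of the Smad cofactors was -0.12, and without antimiR-195 replicate 1 that of the miR-15 family targets was 0.03. With 4 libraries a group, a median SE of 0.17 (log2) over all tested genes limits what could be detected.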
